A study of Mus musculus with 8 samples.

Results

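The change over 4 h of stimulation in RNA labelled as that of Gfi1-knockout splenic T cells was described from 2 of the 8 arrays of the series, the knockout-labelled array at 4 h set against the knockout-labelled array at 0 h. The arrays were chosen by their titles, not by any measured value. Each group had 1 array, so every change below is a size between 1 array a side, with no replicate error and no test.

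At 4 h, the cells had been cultured with antibodies against CD3 and CD28 at 2 µg/ml. At 0 h, the cells were untreated. Per the labels, both arrays carried RNA of T cells enriched from the spleen of Gfi1-knockout C57Bl/6 mice with a magnetic pan-T cell kit. The titles give 1 source number, 501, to all 4 knockout-labelled arrays (0, 4, 8 and 24 h), and another, 502, to the 4 wild-type-labelled arrays at the same times. Whether a number stands for 1 animal or a pool, the age of the mice and the way the Gfi1 gene was disrupted are not given in the labels. No cells were cultured without antibodies, so the effect of the antibodies and that of time in culture cannot be told apart.

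Gfi1 is a zinc-finger repressor that recruits histone-modifying corepressors, and in mice it is needed for neutrophil maturation and takes part in T cell development and activation. When the T cell receptor and CD28 are bound together, calcium, MAP kinase and NF-kB signalling switch on immediate early transcription factors within the first hours, followed by IL-2, other cytokines and the receptors that respond to them. Interferon gamma released by activated T cells in turn induces chemokines and GTPases in the cells that receive it.

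RNA was measured on Affymetrix MOE430A_2.0 arrays, on which a probe set is a group of short probes for 1 transcript. The value of a probe set is its deposited signal intensity, which is proportional to brightness and is not comparable between probe sets. The 2% trimmed mean was 1000.4 on both knockout-labelled arrays, the median signal was 279.75 at 4 h and 305 at 0 h, and 60.1% of probe sets at 4 h and 59.9% at 0 h lay above a floor of 141. The Gapdh 3′ to 5′ ratio was 0.792 at 4 h and 0.788 at 0 h, while the 5′ control probe set of 18S ribosomal RNA had a signal of 16634 at 4 h and 947.5 at 0 h and the 3′ one 994 and 251. The signal of Gfi1 on the knockout-labelled arrays was 2316 at 0 h, 5979 at 4 h, 6459 at 8 h and 9885 at 24 h, against 881.5, 6359, 5259 and 3966 at the same times on the wild-type-labelled arrays. Gfi1 transcript was therefore detected under both labels, and since the position of the probe set relative to the disrupted part of the gene is not given, it does not check the labels. For that reason each array is named here by its label.

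The enriched cells were checked against markers. Signals of the T cell receptor complex and its proximal signalling genes added up to 40978 at 4 h and 34255 at 0 h on the knockout-labelled arrays, against 110930 and 97118 on the wild-type-labelled arrays. Lcp2 alone had 9815 at 4 h and 2384 at 0 h on the knockout-labelled arrays, against 20514 and 5309. Its rise was larger than that of the sum under either label. Primary granule genes, which mark neutrophil precursors, added up to 134230 at 4 h and 115404 at 0 h on the knockout-labelled arrays, against 5606 and 7493 on the wild-type-labelled ones. Mpo, the myeloperoxidase of those granules, had a signal of 41520 at 4 h and 33134 at 0 h on the knockout-labelled arrays, against 2264 and 3142. The knockout-labelled RNA thus held T cell transcripts together with transcripts of neutrophil precursors, and in such bulk RNA fewer cells of a type and less RNA per cell cannot be told apart.

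Signals below the floor were set to it, log2 was taken, and probe sets above it on at least 1 of the 2 arrays were used, 14368 in all. Those with a single gene symbol represented 8043 genes, each by 1 probe set. A gene is said to have risen or fallen where it was at least 2-fold higher or lower at 4 h, and a change against a value below the floor is a lower bound. Changes are on the log2 scale unless a fold is named, and a value in brackets after a gene is its log2 change. At 4 h, 455 genes (5.66%) had risen and 481 (5.98%) had fallen. At least 4-fold changes were less balanced, with 156 genes (1.94%) higher and 54 (0.671%) lower, and at least 16-fold changes numbered 24 genes higher and 3 lower. Over probe sets, the shares were 5.35% higher and 5.85% lower at 2-fold, and 1.59% higher and 0.515% lower at 4-fold.

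The median log2 change of all genes was -0.10, with a 5th percentile of -1.06 and a 95th percentile of 1.10. The balance between rises and falls depended on the scaling of the arrays. Of the changes of at least 2-fold, 48.6% were rises as deposited (455 up, 481 down), 56.4% after quantile normalization (513 up, 396 down) and 60.5% after dividing each array by its median (532 up, 347 down), which moved the median of all genes by 0.12. The probe sets of a gene gave a second reading within the same arrays. Their log2 changes differed by a median of 0.30 over 3284 genes. Of 177 risen genes with another probe set, 121 had another that was also at least 2-fold higher. Fallen genes agreed less often: of 180 with another probe set, 92 had another that was also at least 2-fold lower. Among risen and fallen genes, Bzw2 and Samhd1 had a probe set changing at least 2-fold the opposite way. Genes named below whose other probe sets stayed within 2-fold include Lif (other probe set 0.07), E2f1 (-0.59), Bak1 (-0.28), Ahr (0.23) and Bcl2l1 (0.41 and 0.83).

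**Figure D1:**
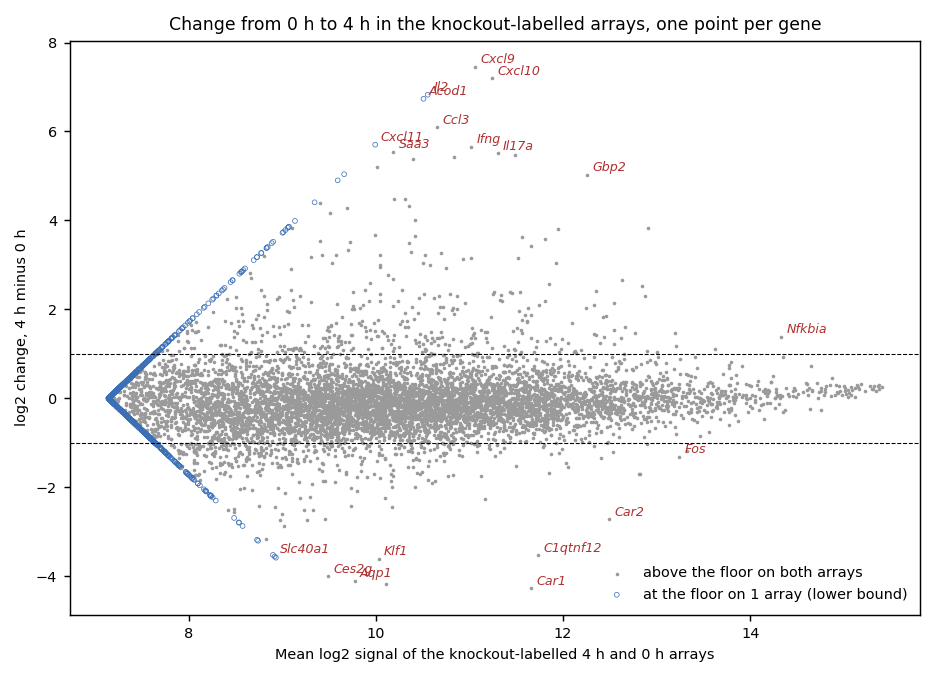
Log2 change from 0 h to 4 h on the knockout-labelled arrays (vertical axis) against the mean log2 signal of the 2 arrays (horizontal axis) for 8043 genes; open circles are genes below the floor on 1 array, whose change is a lower bound, and dashed lines mark 2-fold. Most genes lie within 2-fold, the chemokines Cxcl9 and Cxcl10 stand at the top, and Car1 and Aqp1, genes of red cell precursors, lie at the bottom.

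Genes were described in 53 lists, written from general knowledge with earlier results of these arrays known, 599 genes of which entered the comparison. The lists held 150 of the 455 risen genes and 48 of the 481 fallen ones. Under the other scalings the counts of 38 lists did not change, and those of the other 15 changed by at most 2 genes.

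**Figure D2:**
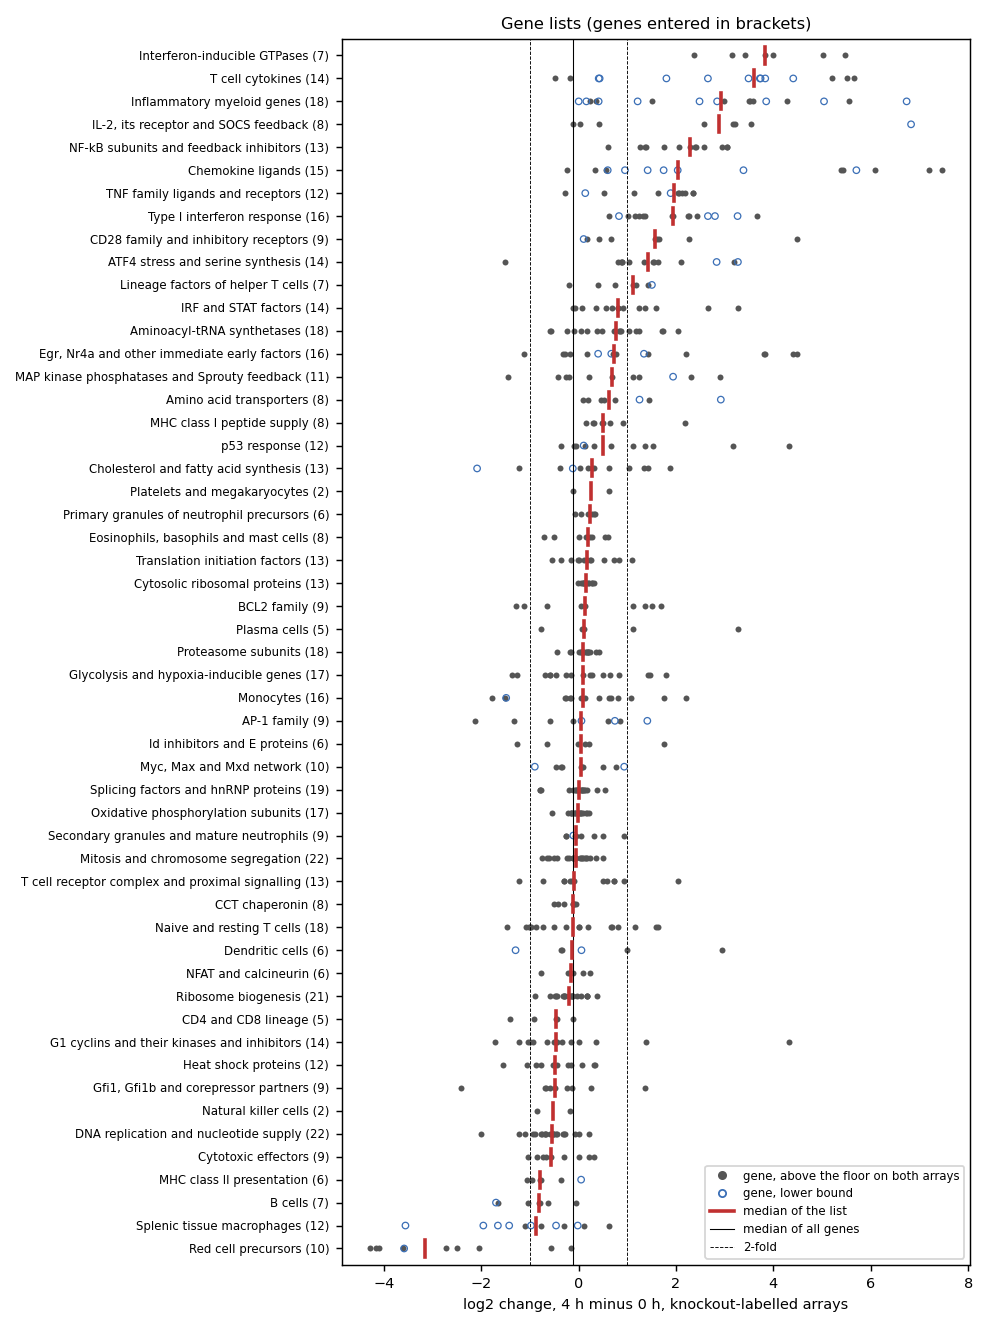
Log2 change of each gene from 0 h to 4 h on the knockout-labelled arrays, by gene list and ordered by the median of the list (red bar); the number of genes entered stands in brackets, open circles are lower bounds, the solid line is the median of all genes (-0.10) and dashed lines mark 2-fold. Interferon-inducible GTPases, T cell cytokines and inflammatory myeloid genes lie at the top and red cell precursor genes at the bottom.

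Among the transcription factors, the NF-kB genes moved together. Of 13 subunits and feedback inhibitors, 12 rose and none fell, with a median log2 change of 2.30. Relb, a subunit of the alternative NF-kB pathway, had a signal of 2128 at 4 h and 258 at 0 h (log2 change 3.04), and its partner Nfkb2 rose by 2.95. Rel, the c-Rel subunit through which T cells switch on Il2, had a signal of 1290 at 4 h and 262 at 0 h (2.30). The inhibitors of the pathway rose as well. Nfkbia, which encodes IkBα and holds NF-kB in the cytoplasm, had a signal of 33290 at 4 h and 12752 at 0 h (1.38), and Tnfaip3, the ubiquitin-editing enzyme A20, rose by 2.40. The one member within 2-fold was Rela, at 0.60.

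The immediate early genes were divided. Of 16 Egr, Nr4a and related factors, 7 rose and 1 fell, with a median of 0.74. Egr2, a zinc-finger factor linked to T cell anergy and tolerance, had a signal of 5534 at 4 h and 246 at 0 h (4.49). Nr4a1, an orphan nuclear receptor widely used as a reporter of receptor signalling in T cells, had a signal of 14825 at 4 h and 1057 at 0 h (3.81), and Atf3 rose by 4.40. Egr1 had a signal of 8584 at 4 h and 3203 at 0 h (1.42), while Klf4, a factor of quiescence, fell by 1.13 and Myc stood at 0.77.

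Of the 9 AP-1 genes 1 rose and 2 fell. Fos, a partner of Jun in the AP-1 dimer, had a signal of 6147 at 4 h and 15294 at 0 h (-1.31), and Fosb had a signal of 250 at 4 h and 1095 at 0 h (-2.13). Both were thus higher in the untreated cells. Fosl2 rose by at least 1.41, and Jun stood at -0.58. Dusp1, a phosphatase that switches MAP kinases off and is itself an immediate early gene, showed the same order, with 2534 at 4 h and 6886 at 0 h (-1.44). Of the 11 MAP kinase phosphatases and Sprouty genes, Spry1 (2.91), Dusp16 (2.31), Dusp14 (at least 1.94), Dusp2 (1.24) and Spred1 (1.12) rose.

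None of the 6 NFAT and calcineurin genes changed 2-fold, and their log2 changes ran between -0.77 and 0.23. Rcan1, a calcineurin inhibitor that NFAT induces in many cell types, had a signal of 293 at 4 h and 319 at 0 h. Of 14 IRF and STAT genes, 5 rose. Irf1, the factor induced by interferon gamma, had a signal of 15939 at 4 h and 2534 at 0 h (2.65), Irf4, which T cells induce in proportion to receptor signal, had 5161 and 532 (3.28), and Stat3 rose by 1.25. Stat2 and Irf7, which serve the type I interferon pathway, rose by 1.60 and 1.36. Stat5a and Stat5b, which carry the IL-2 signal, stood at 0.06 and -0.08.

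T cell cytokines were among the largest changes of the comparison. Of 14 genes, 10 rose and none fell, with a median of 3.61. Of the 14, 9 lay below the floor at 0 h and could not fall. Ifng had a signal of 14703 at 4 h and 291 at 0 h, a 50.5-fold change, and Il17a, the cytokine of T helper 17 and gamma delta T cells, had 16998 and 374 (45.4-fold). Tnf rose 36.7-fold, to 6269 at 4 h against 171 at 0 h. Csf2, which encodes GM-CSF, rose at least 21.2-fold, and Lta (3.83), Lif (3.74), Tnfsf11 (3.72) and Il3 (3.49), all below the floor at 0 h, rose by at least these log2 changes. The cytokines of T helper 2 cells were low. Il4 had a signal of 190 at 4 h and 28.9 at 0 h, and Il13 had 188 and 33.0, both within 2-fold of the floor. Ltb and Tgfb1, already well above the floor at 0 h, stood at -0.17 and -0.49.

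Il2, which makes activated T cells divide, had a signal of 16012 at 4 h and 52.1 at 0 h, at least a 114-fold rise. Its receptor chain Il2ra rose by 3.18, to 1898 at 4 h against 210 at 0 h, while the shared chain Il2rb stood at -0.11. The feedback inhibitors of cytokine signalling Socs1 (3.54), Cish (3.22) and Socs3 (2.57) rose, and Socs2 stood at 0.42. Of the 8 genes of this group 5 rose, each at least 4-fold, and none fell.

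Of 15 chemokine ligand genes, 10 rose and none fell, with a median of 2.04. Of the 15, 7 lay below the floor at 0 h and could not fall. Ccl7, Ccl17, Ccl22 and Cxcl1 were below the floor on both arrays and did not enter. Cxcl9 had the largest fold of any gene measured above the floor on both arrays, 175.3, with a signal of 28174 at 4 h and 161 at 0 h. Cxcl10 had a signal of 29400 at 4 h and 200.1 at 0 h (147-fold), and Cxcl11 had 7351 and 60.4 (at least 52.1-fold). These 3 are the interferon-induced ligands of CXCR3, the receptor of T helper 1 and cytotoxic T cells. Ccl3 (68.1-fold), Ccl4 (43.0-fold) and Xcl1 (41.8-fold), chemokines that activated T cells and natural killer cells secrete, rose as well. Ccl5, which memory T cells transcribe before stimulation, had a signal of 8932 at 4 h and 7043 at 0 h.

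The interferon-inducible GTPases, which attack the vacuoles of intracellular microbes, rose without exception. All 7 genes were at least 4-fold higher, with a median of 3.82. Iigp1 had a signal of 19108 at 4 h and 428 at 0 h (44.6-fold), Gbp2 had 27810 and 856 (32.5-fold), and Igtp had 28891 and 2043 (3.82 on the log2 scale). Genes of the type I interferon response, antiviral effectors and sensors, also rose, 14 of 16 with a median of 1.93. Of the 16, 4 lay below the floor at 0 h and could not fall, and Mx2, below the floor on both arrays, did not enter. Rsad2, which encodes viperin, had a signal of 3615 at 4 h and 284 at 0 h (3.67), Ifit1 had 1356 and 127 (at least 3.27), and Ifih1, which encodes the RNA sensor MDA5, had 3076 and 647 (2.25). Tap1, the peptide transporter of antigen presentation, rose by 2.19, the only 1 of 8 MHC class I supply genes to do so as deposited, while the 6 MHC class II genes had a median of -0.79 and H2-Aa fell by 1.05, to 1527 at 4 h against 3165 at 0 h, a fall within 2-fold when arrays were divided by their medians.

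Promoters of 4 such genes are shown because they hold the letters of NF-kB or interferon response motifs. Each run is the 250 bases before the transcription start in RefSeq's annotation of GRCm38.p6, read 5′ to 3′ on the strand of the gene. Capitals mark the NF-kB motif GGANTTTCC and the interferon response motif AAANNGAAA, where N is any base and either strand counts. The Cxcl10 run lies on the minus strand at chr5:92348890-92349139, the Acod1 run on the plus strand at chr14:103046762-103047011, the Gbp2 run on the plus strand at chr3:142620413-142620662 and the Rsad2 run on the minus strand at chr12:26456453-26456702.
Cxcl10: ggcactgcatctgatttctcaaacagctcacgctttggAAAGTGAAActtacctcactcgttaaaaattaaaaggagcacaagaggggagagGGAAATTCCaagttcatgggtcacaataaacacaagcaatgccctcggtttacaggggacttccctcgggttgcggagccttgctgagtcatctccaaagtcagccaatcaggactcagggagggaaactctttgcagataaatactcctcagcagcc
Acod1: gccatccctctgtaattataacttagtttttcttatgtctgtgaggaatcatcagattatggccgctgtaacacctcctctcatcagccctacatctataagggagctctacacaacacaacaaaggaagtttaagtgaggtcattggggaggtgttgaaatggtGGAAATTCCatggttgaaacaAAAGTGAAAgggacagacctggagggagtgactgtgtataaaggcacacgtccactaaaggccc
Gbp2: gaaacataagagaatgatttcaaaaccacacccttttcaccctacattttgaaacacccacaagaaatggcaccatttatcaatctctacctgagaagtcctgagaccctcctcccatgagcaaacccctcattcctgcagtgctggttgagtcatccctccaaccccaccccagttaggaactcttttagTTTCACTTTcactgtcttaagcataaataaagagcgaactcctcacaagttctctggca
Rsad2: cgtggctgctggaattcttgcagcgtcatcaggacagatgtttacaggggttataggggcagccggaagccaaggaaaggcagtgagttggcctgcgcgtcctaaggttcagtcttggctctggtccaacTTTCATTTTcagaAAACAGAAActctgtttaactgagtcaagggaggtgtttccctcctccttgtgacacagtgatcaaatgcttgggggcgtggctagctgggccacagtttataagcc

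The runs of Cxcl10 and Acod1 hold both motifs, that of Gbp2 holds 1 interferon response motif and that of Rsad2 holds 2. Shares of promoters were counted over 250 bases before to 50 after each start. The interferon response motif was found in 21.7% of 152 promoters of genes at least 4-fold higher (123 of 156 genes matched), in 9.68% of 62 promoters of genes at least 4-fold lower, in 8.37% of 8510 promoters of all genes entered and in 10.6% of all 32851 promoters. It was in 9 of 14 promoters of the type I interferon list and in 5 of 6 of the GTPase list. Genes with the largest rises thus held this motif more often than genes in general. The NF-kB motif was in 7.24% of promoters of the 4-fold higher genes, 3.23% of the 4-fold lower genes, 1.43% of all genes entered and 1.25% of all promoters. The AP-1 motif TGANTCA was in 15.8%, 11.3%, 5.19% and 7.81% of the same sets, and the short NFAT motif GGAAAA in 28.9%, 21.0%, 21.0% and 23.4%. The share of the AP-1 motif was highest in the 4-fold higher set, whereas the NFAT shares lay closer together. The motif TATAAA was in 19.7% of promoters of the 4-fold higher genes and in 7.24% of those of all genes entered, and the cyclic AMP response motif TGACGTCA was in 0.658% and 3.01%. A motif match is a description of the letters and was not tested as a binding site.

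Genes typical of inflammatory monocytes, macrophages and neutrophils rose in number. Of 18 such genes, 13 rose, 11 of them at least 4-fold, and none fell, with a median of 2.92. Of the 18, 9 lay below the floor at 0 h, so they entered through their 4 h signal and could not fall. The list members Nos2, Cxcl5 and F3 were below the floor on both arrays and did not enter. Acod1, the itaconate-producing enzyme of activated macrophages, had a signal of 15027 at 4 h and 26.1 at 0 h, at least 107-fold. Il1b had a signal of 3639 at 4 h and 189 at 0 h (4.27 on the log2 scale). Ptgs2, the inducible cyclooxygenase, rose at least 32.9-fold, Il6 rose at least 14.5-fold, and Saa3, an acute phase protein, rose 46.8-fold to 7963 at 4 h against 170 at 0 h. The receptors Clec4e (3.59), Tlr2 (3.52) and Clec4d (3.49), which sense microbial ligands, rose as well.

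Markers of myeloid cells did not all change alike. None of the 6 primary granule genes changed 2-fold, with log2 changes between -0.07 and 0.33, and none of the 9 genes of secondary granules and mature neutrophils did, between -0.26 and 0.93. S100a8, a calcium-binding protein of neutrophils and monocytes, had a signal of 20334 at 4 h and 19556 at 0 h. Of 16 monocyte genes, 3 rose and 3 fell. Cybb (2.21) and Ncf1 (1.75), subunits of the phagocyte oxidase, and Cebpb (1.08) rose, whereas the chemokine receptor Ccr2 fell to 1701 at 4 h, against 4873 at 0 h, and the granulocyte factor Cebpa fell by 1.77. Summed monocyte signal was 87218 at 4 h and 71488 at 0 h. The part of the neutrophil precursors and monocytes in the rise of the inflammatory genes was not tested.

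**Figure D3:**
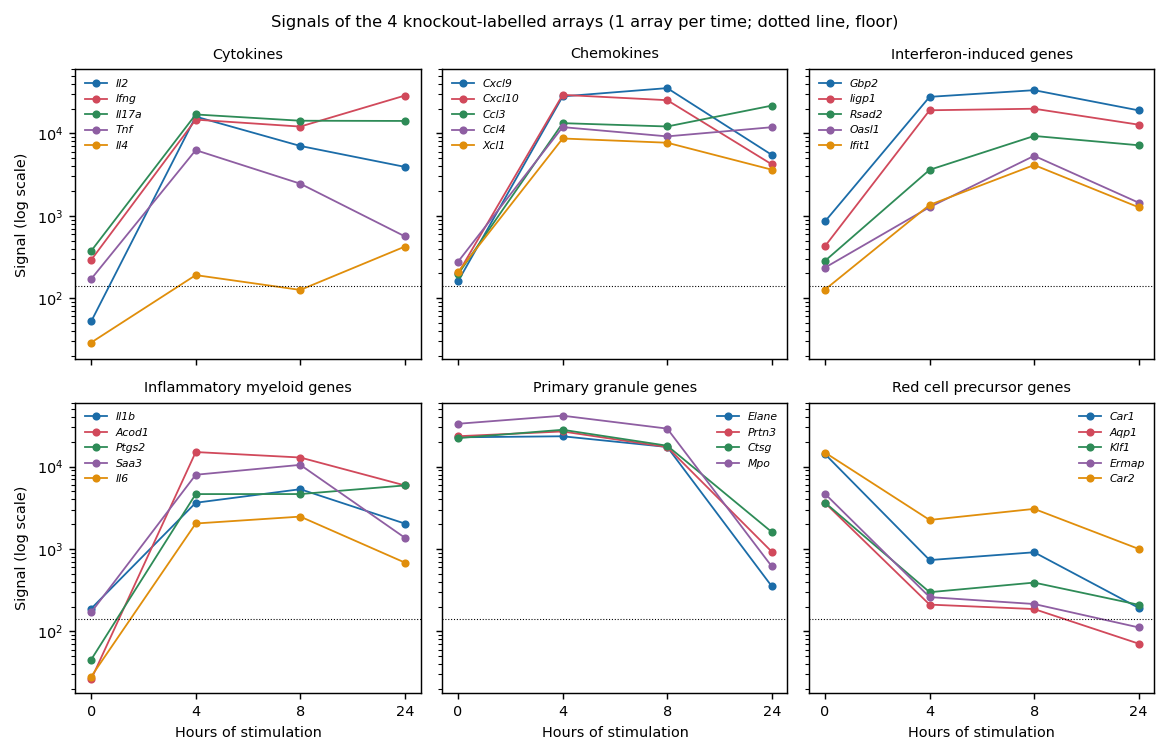
Signals (log scale) of selected genes on the 4 knockout-labelled arrays at 0, 4, 8 and 24 h of stimulation, 1 array per time; the dotted line is the floor of 141. Cytokine, chemokine, interferon-induced and inflammatory genes are higher at 4 h than at 0 h, Il4 at 190 and 28.9 among them, red cell precursor genes are lower, and the primary granule genes are near their 0 h level at 4 h and 8 h and lower at 24 h.

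Transcripts of many, but not all, costimulatory and inhibitory receptors rose. Of 12 TNF family genes, 9 rose and none fell, with a median of 1.97. Of the 12, 2 lay below the floor at 0 h and could not fall. Tnfrsf4, which encodes OX40, had a signal of 3999 at 4 h and 786 at 0 h (2.35), Fas rose by 2.34, and Tnfrsf9, which encodes 4-1BB, by 2.07. Cd40lg, the ligand of B cell help, stood at 155 at 4 h and 42.2 at 0 h, near the floor. Of 9 CD28 family genes, 5 rose. Cd274, which encodes PD-L1 and is induced by interferon gamma, had a signal of 6001 at 4 h and 269 at 0 h (4.48). Cd86, a CD28 ligand of antigen-presenting cells, had 1093 and 227 (2.27). Ctla4 (1.61), Pdcd1 (1.65) and Icos (1.58) also rose, and Cd28 itself stood at 0.18. Cd80 (0.41), Havcr2 (0.67) and Lag3 (0.105 or more) did not pass 2-fold, nor did Cd27 of the TNF family (-0.27).

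Identity genes of T cells moved less. Of 13 receptor complex genes, Lcp2, the adaptor SLP-76, rose by 2.04 and Cd3e fell by 1.22, and the median was -0.10, which is 0.06 after quantile normalization and 0.03 after dividing by the median. Cd3d had a signal of 6369 at 4 h and 7145 at 0 h, and Zap70, the receptor's kinase, stood at 0.58. Of the lineage genes, Cd4 had a signal of 239 at 4 h and 637 at 0 h (-1.41), and Cd8a had 1238 and 1715 (-0.47). Of 18 genes of naive and resting T cells, Lef1 (-1.47), Ets1 (-1.07) and Tob1 (-1.01) fell, and Ets2 (1.64), Slfn2 (1.60) and Bach2 (1.16) rose. Il7r, the survival receptor of resting T cells, had a signal of 3360 at 4 h and 6581 at 0 h (-0.97), and Klf2 stood at -0.88. After quantile normalization 4 genes of this list were past 2-fold downwards, and with arrays divided by their medians 1 was.

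Of 7 helper T cell lineage factors, 4 rose. Tbx21, which encodes T-bet and directs T helper 1 cells, had a signal of 1389 at 4 h and 519 at 0 h (1.42), and Foxp3 rose by at least 1.51. Ahr (1.19) and Prdm1 (1.12) rose too, while Gata3, the T helper 2 factor, stood at -0.20. The cytotoxic genes did not rise. Gzmb stood at 0.32, and Prf1, which encodes perforin, fell by 1.04 and was the only 1 of 9 past 2-fold, a call that both other scalings removed.

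The largest falls lay among genes of red cell precursors. Of 10 such genes, 8 fell at least 4-fold and none rose, with a median of -3.15. The list members Hba-a1 (a signal of 91 at 4 h and 6.5 at 0 h) and Alas2 (22.8 and 39.8) were below the floor on both arrays and did not enter. Car1, a carbonic anhydrase of erythroid cells, had a signal of 733 at 4 h and 14165 at 0 h (-4.27), and Car2 had 2251 and 14788 (-2.72). Aqp1, the water channel of the red cell membrane, had 211 and 3619 (-4.10), and Klf1, the erythroid transcription factor, had 299 and 3648 (-3.61). Tfrc, the transferrin receptor, which proliferating T cells also use, had 4297 and 4799 and did not change 2-fold. Other genes with the deepest falls were the erythroid membrane protein Ermap (-4.17), the Rhesus complex gene Rhag (-3.58 or lower), the carboxylesterase Ces2g (180 at 4 h, 2870 at 0 h) and C1qtnf12 (-3.53). Gfi1b, a relative of Gfi1 that erythroid cells and megakaryocytes use, had a signal of 368 at 4 h and 1967 at 0 h (-2.42).

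Markers of other spleen cells were lower as well. Of 12 genes of splenic tissue macrophages, 5 fell and none rose, with a median of -0.87, and under both other scalings 4 fell. Of the 12, 7 were below the floor at 4 h, so they entered through their 0 h signal and could not rise. Hmox1 of this list stood at 0.63. Slc40a1, the iron exporter of red pulp macrophages, had a signal of 114 at 4 h and 1656 at 0 h (-3.55 or lower), and the complement gene C1qa had 5.9 and 547. Of 7 B cell genes, Cd22 (-1.70 or lower), Cd79a (-1.65) and Ms4a1 (-1.04) fell, and the summed B cell signal was 6955 at 4 h and 12197 at 0 h. Under both other scalings 2 B cell genes fell, and the other probe set of Ms4a1 stood at -0.56. Dtx1, a regulator of Notch signalling outside the marker lists, fell by 3.15, to 152 at 4 h against 1351 at 0 h. The remaining cell type lists changed little. None of 8 eosinophil, basophil and mast cell genes passed 2-fold, nor did the 2 natural killer and the 2 platelet genes entered. Of the natural killer list, Gzma is also in the cytotoxic list, and Ncr1, Klra7 and Klra8 were below the floor on both arrays. The 2 genes entered therefore do not show whether natural killer cells changed. The platelet genes Gp9, Gp1bb and Ppbp were below the floor on both arrays as well. Of the dendritic cell genes, Cd83, which activated lymphocytes also express, rose by 2.94 and Ccr9 fell (-1.29 or lower), and of the plasma cell genes Irf4 and Prdm1 rose, both of which activated T cells use, while Jchain had 25757 at 4 h and 24441 at 0 h.

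**Figure D4:**
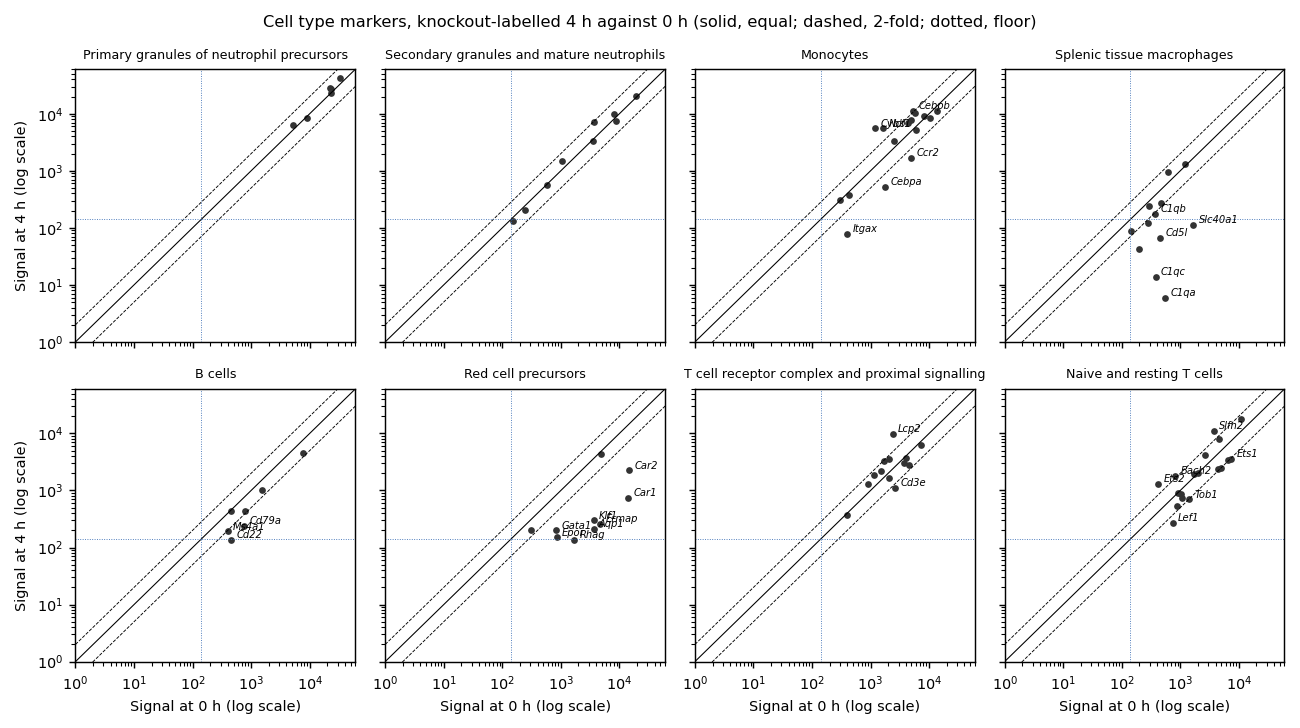
Signal at 4 h (vertical, log scale) against signal at 0 h (horizontal, log scale) on the knockout-labelled arrays for 8 lists of cell type markers, 1 point per gene; the solid line marks equal signals, dashed lines 2-fold and dotted lines the floor, and genes past 2-fold are named. Granule genes lie along the line of equal signals, 8 of 10 red cell precursor genes lie far below it, and T cell receptor genes other than Lcp2 and Cd3e lie within 2-fold of it.

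Ribosome biogenesis genes did not rise on the knockout-labelled arrays at 4 h. None of the 21 changed 2-fold, with a median of -0.20. Ncl, the nucleolar protein nucleolin, had a signal of 19309 at 4 h and 21199 at 0 h, and Myc, whose protein drives these genes, had 7348 and 4320 (0.77). No gene of the 10 in the Myc, Max and Mxd network and 1 of 13 translation initiation genes, Eif4ebp1 (1.09), rose. Amino acid supply changed more. Of 14 genes of the ATF4 stress response and serine synthesis, 9 rose, with a median of 1.43, among them Atf4 itself (1.54), Mthfd2 of the mitochondrial folate cycle (2.11) and the ATF4 target Trib3 (at least 3.27), while Ddit4 fell by 1.52. Of 8 amino acid transporters 3 rose, with the cystine carrier Slc7a11 at least 2.92, and of 18 aminoacyl-tRNA synthetases 6 rose, led by Wars (2.04), the tryptophanyl enzyme that interferon gamma also induces.

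Few cell cycle genes passed 2-fold in either direction. Of 14 G1 cyclin, kinase and inhibitor genes, Cdkn1a, the p21 inhibitor, had a signal of 5825 at 4 h and 293 at 0 h (4.32) and Ccnd2 rose by 1.38, while E2f1 (-1.72), Ccne1 (-1.22) and Ccnd1 (-1.03) fell. Of 22 DNA replication genes, Cdc6 (-1.99), Dut (-1.22) and Mcm2 (-1.09) fell, and the median was -0.55. The other probe set of Mcm2 stood at -0.02. None of 22 mitosis genes changed 2-fold, and their median of -0.06 became 0.07 with arrays divided by their medians. Mki67, which encodes the proliferation antigen Ki-67, had a signal of 9091 at 4 h and 8141 at 0 h.

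Survival genes changed in both directions. Of 9 BCL2 family genes, the death-inducing genes Bcl2l11 (1.69), Pmaip1 (1.36) and Bbc3 (1.12) rose, as did the survival gene Bcl2l1, and Bcl2 (-1.29) and Bak1 (-1.13) fell. Bcl2l11, which encodes BIM, had a signal of 7826 at 4 h and 2428 at 0 h, and Bcl2l1 had 1215 and 428. Of 12 genes of the p53 response 5 rose, among them Gadd45b (3.16) and Sesn2 (1.52), and none fell, though 1 lay below the floor at 0 h. Mdm2 (0.12), Ccng1 (-0.09) and Gadd45a (-0.06) of the same list stayed within 2-fold. The other probe sets of Gadd45b ran from -0.18 to 2.98. In metabolism, the glucose transporter Slc2a1 rose by 1.79 and Hif1a by 1.46, whereas Slc2a3 fell by 1.38. The cholesterol synthesis genes Hmgcs1 (1.87), Fdft1 (1.42), Cyp51 (1.35) and Idi1 (1.04) rose, and Dhcr7 fell below the floor (-2.08 or lower). Of 12 heat shock genes, the inducible Hspa1b (-1.55) and Hspa1a (-1.05) fell. No gene changed 2-fold among 13 ribosomal proteins, 18 proteasome subunits, 17 oxidative phosphorylation subunits, 19 splicing factors or 8 chaperonin subunits.

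Levels at 8 and 24 h came from arrays compared here with nothing, and are given as values on the knockout-labelled arrays at 0, 4, 8 and 24 h. Il2 had 52.1, 16012, 7044 and 3926, and Tnf had 171, 6269, 2454 and 563, so both were highest at 4 h. Ifng had 291, 14703, 12112 and 28817, and was highest at 24 h. Rsad2 had 284, 3615, 9319 and 7184, and Ifit1 had 127, 1356, 4134 and 1268, with the highest signal of both at 8 h. Cxcl9 had 161, 28174, 35507 and 5491. Car1 had 14165, 733, 912 and 193, so its fall was present at each later time. Elane, the neutrophil elastase of primary granules, had 22691, 23350, 17312 and 352.

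The wild-type-labelled arrays gave the same comparison without sharing an array. Of the 8043 genes, 516 (6.42%) were at least 2-fold higher and 939 (11.7%) at least 2-fold lower at 4 h on the wild-type-labelled arrays. The 8043 genes had entered by their signal on the knockout-labelled arrays, so genes above the floor only on wild-type-labelled arrays are not counted. Of the rises, 228 were shared, 50.1% of the knockout-labelled and 44.2% of the wild-type-labelled ones. Of the falls, 230 were shared, 47.8% and 24.5% of the same lists. Among these genes, rises were shared in similar proportions from either side, while most wild-type-labelled falls did not pass 2-fold downwards under the knockout label. A gene not counted as shared can still be lower under both labels, as Il7r was (-0.97 under the knockout label, -1.29 under the wild-type label). Across 6718 genes above the floor on all 4 arrays, the log2 changes had a Pearson correlation of 0.58, a description over genes measured on the same 4 arrays. Of the 156 genes at least 4-fold higher on the knockout-labelled arrays, 107 also rose on the wild-type-labelled ones, 49 were within 2-fold there, 11 of them at the floor on both wild-type-labelled arrays and so not measured, and none fell.

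Il2, the cytokine list and the NF-kB list moved the same way under both labels. Il2 rose by at least 6.83 on the knockout-labelled arrays and at least 6.51 on the wild-type-labelled ones, the T cell cytokine list had medians of 3.61 and 3.28, and the NF-kB list 2.30 and 1.45. At 0 h, 9 of the 14 cytokine genes were at or below the floor under the knockout label and 6 under the wild-type label. The cytokine medians thus rest in part on lower bounds. Members of the list could differ, as Il4 did (0.43 or more, against 5.09). Red cell precursor genes had medians of -3.15 and -2.32. In contrast, the inflammatory myeloid list had a median of 2.92 on the knockout-labelled arrays and 0.33 on the wild-type-labelled ones, with summed signals of 62236 at 4 h and 4141 at 0 h under the knockout label, against 6579 and 2353. On the wild-type-labelled arrays 13 of its 18 genes were at or below the floor at 0 h and 5 at 4 h, so that its median there rests largely on lower bounds and on genes not measured. Of the 18 genes, 13 rose under the knockout label, and 6 rose and 1 fell under the wild-type label. Il1b stood at 4.27 and -0.31, and Ptgs2, below the floor at 0 h under both labels, at 5.04 or more and 0.43 or more. Il12b, also below the floor at 0 h under both labels, went the other way, at 1.21 or more and 2.98 or more. The type I interferon list had medians of 1.93 and 0.09, and its summed signal was 30617 at 4 h and 8534 at 0 h on the knockout-labelled arrays, against 23696 and 20603 on the wild-type-labelled ones, so that the labels lay further apart at 0 h than at 4 h.

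Growth and cell division genes also differed between the labels. Ribosome biogenesis genes had a median of -0.20 with 0 of 21 risen on the knockout-labelled arrays, against 0.95 with 9 risen on the wild-type-labelled ones. Mitosis genes had a median of -0.06 with 0 of 22 fallen, against -1.26 with 17 fallen. Il4 had a signal of 190 at 4 h and 28.9 at 0 h on the knockout-labelled arrays, against 8656 and 254 on the wild-type-labelled ones. Irf4 stood at 3.28 and 6.00, and Prnp, which encodes the prion protein, at 0.92 and 4.39. Among genes above the floor on all 4 arrays, the change was at least 4-fold more positive under the knockout label for 36 genes and under the wild-type label for 16. With 1 array a side, none of these differences was tested, and the myeloid and T cell marker sums given above differed between the labels in the same arrays.

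**Figure D5:**
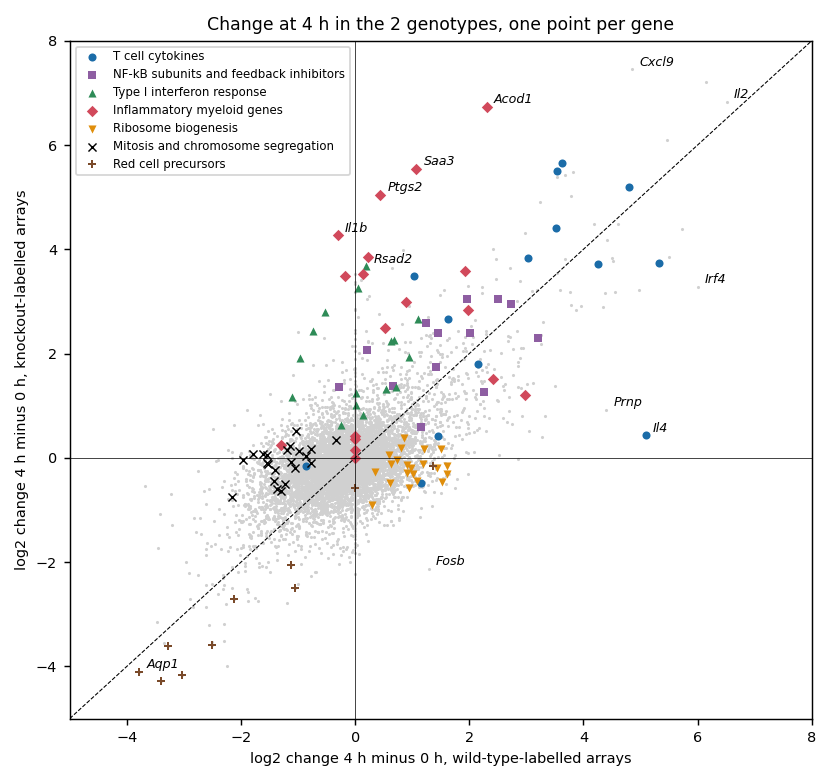
Log2 change from 0 h to 4 h on the knockout-labelled arrays (vertical) against that on the wild-type-labelled arrays (horizontal), 1 grey point per gene, with 7 gene lists coloured and the dashed line marking equal change. Inflammatory myeloid and type I interferon genes lie mostly above the line, ribosome biogenesis genes lie below it, and mitosis genes lie left of 0 on the horizontal axis and near 0 on the vertical one.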

How the data were processed

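The deposited values are signal intensity, made by the authors with GCOS 1.4 and MAS5 per the submitters' processing notes; their settings are not given in the sources used here. Per the labels' protocols, RNA was extracted with TRIzol and about 1 µg was made into biotinylated cRNA. The table held 22690 probe sets, 64 of them controls, which were left out. No column of per-sample values went unused (0).

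The floor of 141 (log2 7.14) was the median over the 8 arrays of each array's 40th percentile. The annotation gave a single gene symbol to 20380 of the other 22626 probe sets, several to 691 and no symbol to 1555; 20351 matched the reference table. Where a gene had more than 1 probe set, the one with the highest mean of floored log2 values over the 8 arrays stood for it. The number of arrays limits the precision. Members and gene lists were chosen with earlier results of these data known. Genes were named as list members, as the 15 largest changes each way, as the 10 brightest each way with 1 array below the floor, or as the 10 largest differences from the wild-type-labelled change each way. No p-value was computed. Promoters were those of RefSeq (GRCm38.p6). The size rule and the motif search were checked on simulated data. Python 3.11.15, numpy 2.4.6, pandas 2.3.3, scipy 1.17.1 and matplotlib 3.10.9 were used. Alternatives for the scaling, floor, filter, log scale, probe set rule and fold are in the closing section.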

Additional observations from a re-analysis of the deposited data

Results flagged for a closer look

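Among the genes named, 2 changed at least 2-fold in opposite directions under the 2 labels. Fosb, a partner of Jun in AP-1, had a log2 change of -2.13 on the knockout-labelled arrays (250 at 4 h, 1095 at 0 h) and 1.29 on the wild-type-labelled arrays (349 at 4 h, 143 at 0 h). Ifit2, an interferon-induced gene, had a log2 change of 1.17 on the knockout-labelled arrays (1155 at 4 h, 514 at 0 h) and -1.11 on the wild-type-labelled arrays (694 at 4 h, 1500 at 0 h). With 1 array a side, the difference was not tested.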

How the results depend on the processing

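No paired analysis was possible because each group had 1 array, and no replicate could be left out. With the floor at the 20th percentile (a signal of 39.65), 959 genes were at least 2-fold higher and 769 lower, 107 at least 4-fold lower, and over probe sets 1700 higher and 1439 lower at 2-fold and 353 higher and 189 lower at 4-fold. With the floor at the 60th percentile (474.2), 208 genes were lower at 2-fold, 101 higher and 11 lower at 4-fold, and over probe sets 491 higher and 350 lower at 2-fold and 135 higher and 17 lower at 4-fold. Requiring both arrays above the floor left 33 genes and 48 probe sets at least 4-fold lower. On the log2 scale of the signal plus the floor, 276 genes and 474 probe sets were lower at 2-fold and 32 and 39 at 4-fold. A 1.5-fold rule gave 937 genes higher and 1438 lower, and a 3-fold rule 223 and 122. The number of lists with a median at least 2-fold lower was 2 with the lower floor and 2 with a filter of at least 2 of 8 arrays. The log2 changes of named genes never changed sign where they had passed 2-fold: 76 of their repeats no longer passed it and 41 newly did, against 5393 on the same side. Medians of lists stayed on the same side of 2-fold in 464 repeats, dropped below it in 8 and newly passed it in 4. Signals near the floor limit what can be called.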

Other observations

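The 53 lists left out 72 of the genes at least 4-fold higher and 42 of those at least 4-fold lower on the knockout-labelled arrays. Some of these, chosen after their values were seen, are given as values. Icam1, an adhesion molecule of activated leukocytes, had a signal of 10633 at 4 h and 854 at 0 h (log2 change 3.64), and Cd40, the receptor of antigen-presenting cells for T cell help, had 4215 and 66.8 (at least 4.90). Crem (3.22), Plagl1 (4.17) and Bhlhe40 (3.22), which encode transcription factors, rose on these arrays, and by 4.97, 4.42 and 3.58 on the wild-type-labelled ones. Mir155hg, the host transcript of miR-155, had 1941 at 4 h and lay below the floor at 0 h (at least 3.78).

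Several had little or no change under the wild-type label. Nupr1, a stress-induced chromatin protein, had a log2 change of 3.65 on the knockout-labelled arrays and 0.64 on the wild-type-labelled ones. Batf2 (at least 3.40, against 0.10), Fpr2, a formyl peptide receptor of neutrophils (3.05, against 0.21), and Sod2, the mitochondrial superoxide dismutase (2.14, against -0.06), showed the same order. Among the falls, Alad (-2.09) and Cpox (-2.01), enzymes of heme synthesis, and Hemgn (-2.51), an erythroid nuclear protein, were lower at 4 h on the knockout-labelled arrays, and by -2.16, -1.69 and -2.31 on the wild-type-labelled ones.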
